A study of Homo sapiens with 22 samples.

Results

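The CBR truncation and the delIDR1 truncation of ARID1A were compared by where each left the BAF complex and acetylated histone H3 on chromatin. The members were the 6 peak lists of those constructs, of 22 libraries in the series, with antibodies to SMARCA4, SMARCC1 and H3K27ac. Peaks on chromosomes 1 to 22 were kept, the longer list of each pair was cut to the length of the shorter by its −log10 p-value, and peaks were shared if they overlapped by at least 1 bp. This left 7011 SMARCA4, 10273 SMARCC1 and 30991 H3K27ac peaks per truncation, 96550 in all, of 493062 peaks in the 21 libraries of these 3 antibodies.

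The libraries were made by CUT&Tag, a method in which an antibody tethers a transposase to a chromatin protein and the DNA beside it is cut, tagged and sequenced. The cells were of the endometrial carcinoma line AN3CA. The groups used were cells expressing ARID1A CBR, ARID1A delIDR1, ARID1A wild-type (WT), the ARID domain mutant DBDmut, the DDX4 IDR hybrid, or an empty vector control (Empty). Each ARID1A form had 1 library per antibody and Empty had 2 replicates, so no difference between the truncations has a replicate check, and the pair of Empty libraries is the only replicate comparison. The labels do not spell out CBR or IDR1, do not give the promoter or the clone, and leave unsaid if cultures were separate. No library of the ARID1A tag from CBR or delIDR1 cells was analysed here, so the level of either protein was not checked.

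ARID1A belongs to BAF, a SWI/SNF chromatin remodelling complex that uses the energy of ATP to move or evict nucleosomes. SMARCA4 (BRG1) is the ATPase of the complex and SMARCC1 (BAF155) is a core subunit on which the complex is assembled. BAF opens chromatin at many enhancers, and H3K27ac is the acetylation of lysine 27 of histone H3 that marks active enhancers and promoters. A site with both BAF subunits but no acetylation, and a site with all of them, are therefore different chromatin states.

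The truncation lists differed in length and depth before the cut. On chromosomes 1 to 22 CBR had 12616 SMARCA4 peaks and delIDR1 had 7011, with 11744 and 10273 for SMARCC1 and 40271 and 30991 for H3K27ac. Depth, as fragments per kb of background recovered from the peak values, was 1.19 in CBR and 1.02 in delIDR1 for SMARCA4, 2.87 and 1.33 for SMARCC1, and 4.69 and 3.59 for H3K27ac. The weakest peak kept from CBR was therefore stronger within its list, with a −log10 q of 5.26, 4.10 and 4.44 for the 3 antibodies, against 2.025, 2.007 and 2.003 in delIDR1. The first CBR peaks outside the cut had a −log10 p of 8.91, 7.47 and 7.16, the same to 3 digits as the last inside. Empty replicate 2 stood apart for H3K27ac, with 90766 peaks at 14.5 fragments per kb where the other libraries had 30991 to 49682 peaks. Most results that rest on Empty are given for each replicate.

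Close to 50% of each list was shared for all 3 antibodies. For SMARCA4, 3593 CBR peaks (51.2%; 95% Wilson interval 50.1 to 52.4) had no delIDR1 peak and 3607 delIDR1 peaks (51.4%; 50.3 to 52.6) had no CBR peak. For SMARCC1 the numbers were 5257 CBR-only peaks (51.2%) and 5297 delIDR1-only peaks (51.6%). For H3K27ac they were 14651 CBR-only (47.3%; 46.7 to 47.8) and 15086 delIDR1-only (48.7%; 48.1 to 49.2). These intervals, like all others here, cover counting error only.

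The same count between the Empty replicates, on equal-length lists, was lower for every antibody. For SMARCA4, 42.5% of 5453 peaks of Empty replicate 1 lacked a peak of replicate 2 and 44.6% the reverse. For SMARCC1 these shares were 29.9% and 32.2% of 10273 peaks. For H3K27ac they were 23.4% and 39.9% of 30991 peaks. The truncations thus overlapped less than the Empty replicates did. With all SMARCA4 lists at 5453 peaks, 51.7% of CBR and 51.5% of delIDR1 peaks were shared, against 57.5% and 55.4% in Empty replicates 1 and 2. Whether other replicate pairs would differ as much was not tested.

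**Figure D1:**
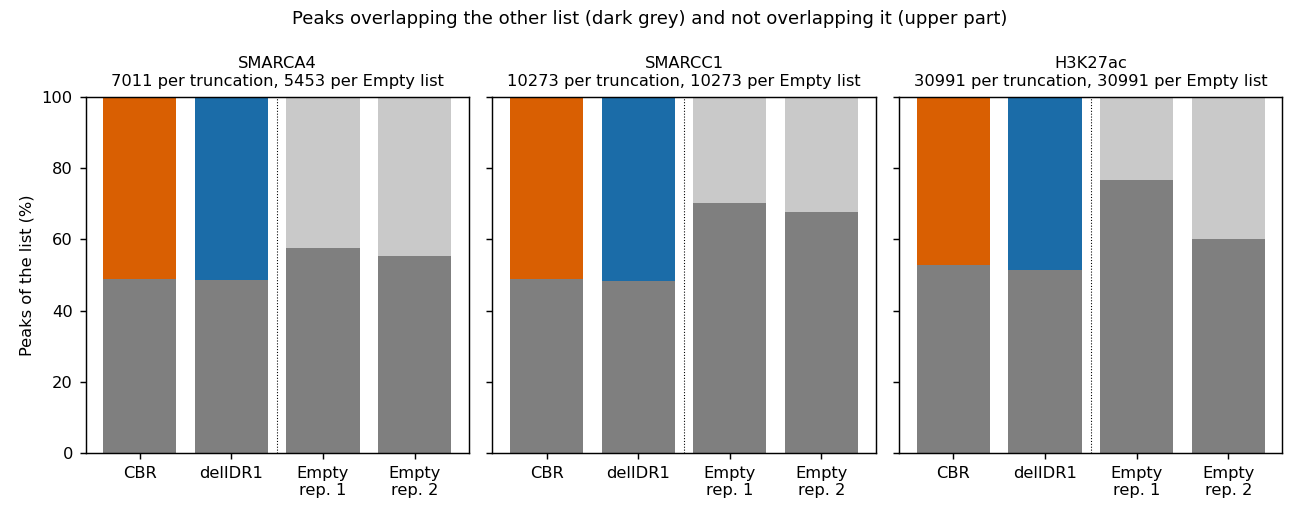
Percent of peaks (y axis) of each list (x axis) that overlap the other list of its pair (dark grey) or do not (upper part), for CBR against delIDR1 and for Empty replicate 1 against replicate 2, per antibody. The parts without overlap are 47.3 to 51.6% for the truncations and 23.4 to 44.6% for the Empty replicates.

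Few of the peaks of 1 truncation lay beside a peak of the other. Of the CBR-only peaks, 5.65% for SMARCA4, 8.50% for SMARCC1 and 12.2% for H3K27ac lay within 1 kb of a delIDR1 peak, and of the delIDR1-only peaks 5.54%, 8.40% and 13.2% lay within 1 kb of a CBR peak. The cut also removed some partners: 496 delIDR1-only SMARCA4 peaks (13.8%), 272 SMARCC1 peaks (5.13%) and 866 H3K27ac peaks (5.74%) overlapped a CBR peak below the cut.

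Peaks of only 1 truncation were the weaker and narrower peaks of their lists. In CBR the median SMARCA4 pileup, the number of fragments at the summit, was 16 in shared and 10 in CBR-only peaks, and in delIDR1 it was 13 and 8. H3K27ac pileups had medians of 32 and 17 in CBR and 31 and 16 in delIDR1. Median H3K27ac widths of the unshared peaks were 234 bp in CBR and 332 bp in delIDR1.

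When each list was divided into 5 by rank, the shared share was lower in every weaker group. It went from 84.8% to 25.4% for CBR SMARCA4 and from 84.5% to 17.5% for delIDR1 SMARCA4. For SMARCC1 it went from 81.6% to 23.7% in CBR and from 81.9% to 16.7% in delIDR1. For H3K27ac it went from 89.98% to 18.4% in CBR and from 84.4% to 20.9% in delIDR1. In the strongest 20% of H3K27ac, delIDR1 thus had 968 peaks that CBR lacked, and CBR had 621 that delIDR1 lacked.

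**Figure D2:**
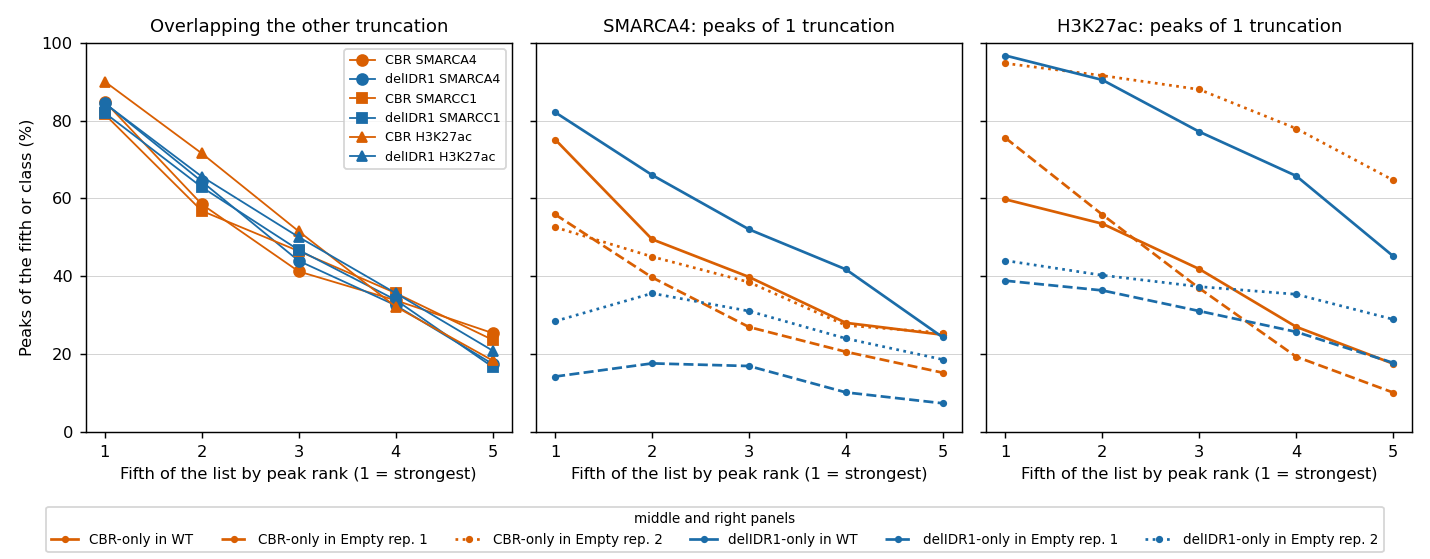
Percent (y axis) against rank group, each 20% of a list, within its own library (x axis, 1 is strongest). The left panel shows peaks overlapping the other truncation, 81.6 to 89.98% in the first and 16.7 to 25.4% in the last; the others show peaks of only 1 truncation found in WT (solid), Empty replicate 1 (dashed) and Empty replicate 2 (dotted), where delIDR1-only H3K27ac peaks in WT run from 96.7% to 45.2%.

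Of the 3 antibodies, H3K27ac gave the largest difference between the unshared classes in WT. Of the delIDR1-only peaks, 66.9% had a WT H3K27ac peak, against 31.3% of the CBR-only peaks, a difference of 35.5 percentage points (95% Newcombe interval 34.5 to 36.6). As background, 80.9% of all cut delIDR1 peaks and 64.5% of all cut CBR peaks had one. Among shared peaks 94.2% did, counted from either truncation. Acetylation found with delIDR1 and not with CBR was thus more often at sites that WT also acetylated than the reverse. With the WT list of 49682 peaks cut to 30991, the shares were 49.2% of delIDR1-only and 17.8% of CBR-only peaks.

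In Empty replicate 1 the classes were alike, with 26.6% of delIDR1-only and 26.5% of CBR-only H3K27ac peaks (difference 0.0373 points; −0.967 to 1.04). In Empty replicate 2 they were far apart, at 34.9% and 77.8% (difference −42.9 points; −43.9 to −41.8). Over all cut peaks, Empty replicate 1 held 54.8% of delIDR1 and 55.5% of CBR peaks, and Empty replicate 2 held 64.8% and 85.8%. Over all unshared peaks, the higher Empty share among CBR-only acetylation therefore came from replicate 2 alone: 52.6% of CBR-only and 15.4% of delIDR1-only peaks were in replicate 2 and not in replicate 1. Replicate 2 had the longest and deepest list. Cut to 30991 peaks, it held 49.0% of CBR-only and 22.2% of delIDR1-only peaks. The part of its depth in this result was not tested.

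WT and Empty together split the acetylation further. Of delIDR1-only H3K27ac peaks, 37.1% were in WT and in neither Empty replicate, against 2.31% of CBR-only peaks. Over all cut peaks these shares were 20.6% for delIDR1 and 3.75% for CBR, so the CBR-only share was low, as in its whole list. Without Empty replicate 2 the unshared classes had 47.1% and 14.0%, and without replicate 1 they had 41.0% and 2.72%. A peak in either Empty replicate and not in WT was found for 50.1% of CBR-only and 12.2% of delIDR1-only peaks, beside 26.4% and 8.53% of all cut peaks. This count was not split by replicate. With or without a WT peak, 52.6% of CBR-only peaks were in replicate 2 and not in replicate 1, and 1.32% the reverse. For delIDR1-only peaks these shares were 15.4% and 7.06%. Peaks in none of these libraries made up 18.6% of CBR-only and 20.95% of delIDR1-only peaks, and 9.15% of all cut CBR peaks.

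The other ARID1A forms divided the same classes. DBDmut had an H3K27ac peak at 63.6% of delIDR1-only and 21.4% of CBR-only peaks, while DDX4 had one at 31.7% and 42.5%. Over all cut peaks DBDmut had 77.8% of delIDR1 and 58.3% of CBR peaks, and DDX4 had 62.0% and 67.9%. With every list cut to 30991 peaks the order was unchanged for each of these libraries other than Empty replicate 1. The shares for delIDR1-only and CBR-only peaks were then 49.2% and 17.8% in WT, 56.2% and 15.7% in DBDmut, and 29.2% and 38.4% in DDX4. In Empty replicate 1 they were 23.8% and 24.1%, a difference within counting error.

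**Figure D3:**
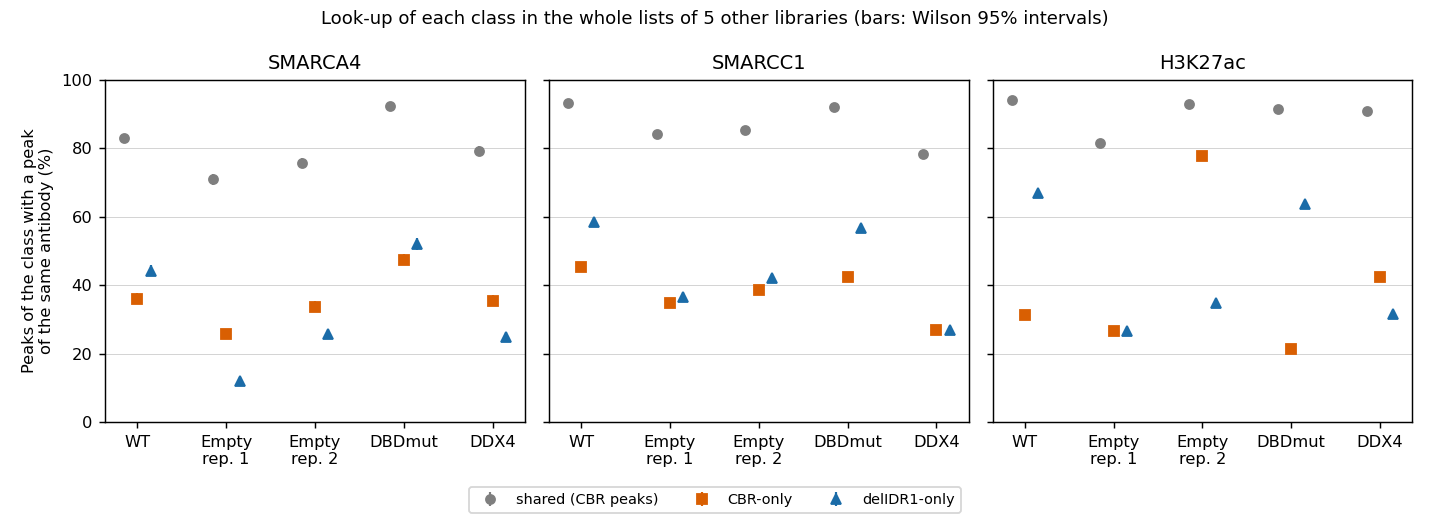
Percent of shared (grey circles), CBR-only (orange squares) and delIDR1-only (blue triangles) peaks with a peak of the same antibody in 5 other libraries (x axis), whole lists, with Wilson 95% bars mostly smaller than the symbols. For H3K27ac the delIDR1-only peaks lie above the CBR-only peaks in WT (66.9 and 31.3%) and DBDmut (63.6 and 21.4%) and below them in Empty replicate 2 (34.9 and 77.8%).

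The WT difference was present at every strength. From the strongest to the weakest 20% of the H3K27ac lists, WT had 96.7, 90.4, 77.1, 65.8 and 45.2% of delIDR1-only peaks and 59.7, 53.5, 41.8, 27.0045 and 17.5% of CBR-only peaks. In the strongest 20%, Empty replicate 1 had 38.8% of the delIDR1-only and 75.5% of the CBR-only peaks there, and Empty replicate 2 had 44.0% and 94.7%. In the weakest 20%, Empty replicate 1 had 17.7% and 10.1%, and Empty replicate 2 had 28.9% and 64.7%. The equal overall share in Empty replicate 1 was thus made of strong CBR-only peaks found there more often and weak ones found there less often than delIDR1-only peaks of the same rank group.

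SMARCA4 peaks, which mark the ATPase itself, gave a difference in WT that depended on the cut. WT SMARCA4 was at 44.2% of delIDR1-only and 36.1% of CBR-only peaks, a difference of 8.09 points (5.83 to 10.3), beside 63.2% and 59.0% of all cut delIDR1 and CBR peaks. With uncut lists the shares were 41.9% and 20.01%, a difference of 21.9 points. Empty replicate 1 had 12.004% of delIDR1-only and 25.7% of CBR-only peaks, and replicate 2 had 25.7% and 33.7%. Both replicates thus held more of the CBR-only peaks, as they did over all cut peaks, with 47.7% of CBR and 40.5% of delIDR1 peaks in replicate 1 and 54.2% and 49.7% in replicate 2. In either replicate the shares were 28.8% and 42.8%, a difference of −14.0 points (−16.2 to −11.8). With uncut lists that difference was −0.454 points.

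A SMARCA4 peak in WT and in neither Empty replicate was seen for 30.5% of delIDR1-only and 13.3% of CBR-only peaks, a difference of 17.2 points (15.3 to 19.03). Over all cut peaks the shares were 20.8% and 11.8%, so the CBR-only share was near that of its whole list. Many SMARCA4 peaks of only 1 truncation were in neither WT nor Empty, 40.7% for delIDR1 and 43.9% for CBR. Of all cut delIDR1 and CBR peaks 23.6% and 25.1% were in neither. Among shared peaks WT had 83.1%, Empty replicate 1 had 70.9% and Empty replicate 2 had 75.7%, counted from CBR. DBDmut had 52.0% of delIDR1-only and 47.4% of CBR-only peaks, and DDX4 had 24.9% and 35.5%. Of all cut delIDR1 and CBR peaks DBDmut had 71.6% and 69.3%, and DDX4 had 51.3% and 56.8%.

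SMARCC1, the core subunit, differed in WT, and in Empty the sign depended on the replicates counted and on the cut. WT SMARCC1 was at 58.6% of delIDR1-only and 45.3% of CBR-only peaks, a difference of 13.2 points (11.3 to 15.1), beside 75.4% and 68.8% of all cut peaks. Empty replicate 1 had 36.7% and 34.9%, a difference of 1.76 points (−0.0734 to 3.58), and replicate 2 had 42.1% and 38.7%, a difference of 3.33 points (1.46 to 5.20). Both replicates had 29.9% and 23.5%, a difference of 6.47 points (4.78 to 8.15). Either replicate had 48.8% and 50.2%, a difference of −1.38 points (−3.29 to 0.528). With peaks of a −log10 q of at least 5 that last difference was 6.18 points (3.90 to 8.46). The all-peak shares in Empty were 59.7% of delIDR1 and 59.0% of CBR peaks for replicate 1 and 62.9% and 61.5% for replicate 2. Shared SMARCC1 peaks were in WT in 93.3% of cases, and 36.5% of CBR-only but 25.4% of delIDR1-only peaks were in neither WT nor Empty. Of all cut CBR and delIDR1 peaks 19.6% and 14.0% were in neither.

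BAF peaks of the 2 truncations also lay in differently acetylated chromatin. At SMARCC1 peaks found only with delIDR1, H3K27ac was present in delIDR1 cells at 71.5%, in CBR cells at 49.3% and in WT at 73.9%. At SMARCC1 peaks found only with CBR the shares were 44.2% in delIDR1, 50.9% in CBR and 49.2% in WT. Of all cut delIDR1 SMARCC1 peaks, 78.4% had H3K27ac in delIDR1, 67.0% in CBR and 81.6% in WT, and of all cut CBR peaks 64.6%, 67.9% and 69.1% did. Each unshared share was thus below that of its whole list. At SMARCA4 peaks each truncation had H3K27ac at a like share of its own peaks, 69.2% of delIDR1-only and 67.0% of CBR-only, beside 77.7% and 77.8% of all cut peaks. The delIDR1-only SMARCA4 peaks carried it at 39.7% in Empty replicate 1 and 49.3% in replicate 2, while the CBR-only peaks did at 66.0% and 75.8%. For all cut SMARCA4 peaks the share in Empty replicate 1 was 63.5% for delIDR1 and 77.1% for CBR.

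The reverse look-up, of WT BAF at acetylated sites, gave the same order. WT SMARCC1 lay at 30.4% of delIDR1-only and 8.48% of CBR-only H3K27ac peaks, and WT SMARCA4 at 15.9% and 3.49%. Over all cut H3K27ac peaks WT SMARCC1 was at 45.1% for delIDR1 and 34.6% for CBR, and WT SMARCA4 at 25.4% and 19.3%. In whole lists the truncations themselves had SMARCC1 at fewer of the unshared peaks than WT did. The WT SMARCC1 list was the longest, with 23364 peaks, against 10273 in delIDR1 and 11744 in CBR. The part of list length in this was not tested. The delIDR1 library had SMARCC1 at 11.2% of its own unshared H3K27ac peaks. CBR had it at 7.26% of its own, beside 23.4% of all cut CBR peaks.

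To follow the complex and not single subunits, a BAF site was taken as a SMARCA4 peak that overlaps a SMARCC1 peak of the same truncation. CBR had 4864 such sites and delIDR1 had 4527. Both subunits of the other truncation were found at 2637 CBR sites (54.2%) and 2621 delIDR1 sites (57.9%), which are called shared. Neither was found at 981 CBR sites (20.2%; 19.1 to 21.3) and 1073 delIDR1 sites (23.7%; 22.5 to 24.96), which are called CBR-only and delIDR1-only sites. The remaining 1246 and 833 had 1 of the subunits. Of the delIDR1-only sites, 83.9% also had neither subunit in the uncut CBR lists.

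Acetylation was more frequent at delIDR1-only than at CBR-only BAF sites. In the own library 90.4% of delIDR1-only and 69.0% of CBR-only sites had H3K27ac, a difference of 21.4 points (18.0 to 24.8), beside 89.9% of all delIDR1 and 85.9% of all CBR sites. In the cells of the other truncation, 43.9% of delIDR1-only sites were acetylated in CBR and 56.8% of CBR-only sites were acetylated in delIDR1. Acetylation was present in the own and absent from the other truncation at 531 delIDR1-only sites (49.5%) and 167 CBR-only sites (17.0%). At shared sites this was so for 3.43% of delIDR1 sites and 4.78% of CBR sites.

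The same sites differed in WT and Empty. H3K27ac was present in WT at 88.4% of delIDR1-only and 62.1% of CBR-only sites, in Empty replicate 1 at 42.6% and 68.1%, and in Empty replicate 2 at 50.8% and 77.6%. Over all BAF sites of delIDR1 and CBR it was present in WT at 92.7% and 86.0%, in Empty replicate 1 at 78.1% and 85.9%, and in replicate 2 at 82.2% and 90.1%. Of all delIDR1 and CBR sites, DBDmut had it at 91.1% and 83.7%, and DDX4 at 84.1% and 85.0%. At delIDR1-only and CBR-only sites DBDmut had it at 87.9% and 60.1%, and DDX4 at 58.9% and 61.3%. Here, unlike at all H3K27ac peaks, both Empty replicates gave the same order by similar margins, −25.5 points (−29.6 to −21.3) in replicate 1 and −26.8 points (−30.7 to −22.7) in replicate 2.

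Both BAF subunits were in WT at 56.6% of delIDR1-only and 27.6% of CBR-only sites, beside 76.3% of all delIDR1 and 69.3% of all CBR sites. The difference was 28.9 points (24.8 to 32.9). The Empty replicates did not give 1 order for this measure, with 8.67% and 17.2% in replicate 1 but 26.6% and 20.6% in replicate 2. Over all delIDR1 and CBR sites the shares were 52.5% and 56.7% in replicate 1 and 62.6% and 61.4% in replicate 2. DBDmut had both subunits at 65.8% of delIDR1-only and 33.7% of CBR-only sites, and DDX4 at 18.9% and 16.2%. Over all delIDR1 and CBR sites DBDmut had them at 85.3% and 77.0%, and DDX4 at 59.7% and 58.4%.

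A subset with both subunits and acetylation in WT, and none of the 3 in either Empty replicate, held 331 delIDR1-only sites (30.8%; 28.2 to 33.7) and 8 CBR-only sites (0.815%; 0.414 to 1.60). Over all BAF sites it held 9.23% for delIDR1 and 0.925% for CBR. Leaving out an Empty replicate gave 32.2% and 1.22% without replicate 1, and 35.9% and 1.83% without replicate 2. With subunits alone, 423 delIDR1-only sites (39.4%) and 48 CBR-only sites (4.89%) had both in WT and neither in Empty, beside 13.4% of all delIDR1 and 3.58% of all CBR sites. Of those 423 sites, 95.04% were acetylated in delIDR1, 97.4% in WT and 90.8% in DBDmut. Of the same sites 28.4% were acetylated in CBR and 33.1% in DDX4, and 8.27% and 16.3% in Empty replicates 1 and 2. They were picked for BAF peaks in delIDR1 and WT and none in Empty, so these shares are no separate test of the class. Of the other 650 delIDR1-only sites, 87.4% were acetylated in delIDR1, 82.6% in WT and 86.0% in DBDmut. In CBR 54.0% of those 650 were acetylated, in DDX4 75.7%, and in the Empty replicates 64.9% and 73.2%. Of the 48 CBR-only sites, 79.2% were acetylated in CBR and likewise in delIDR1, 87.5% in WT, and 68.8% in each Empty replicate.

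**Figure D4:**
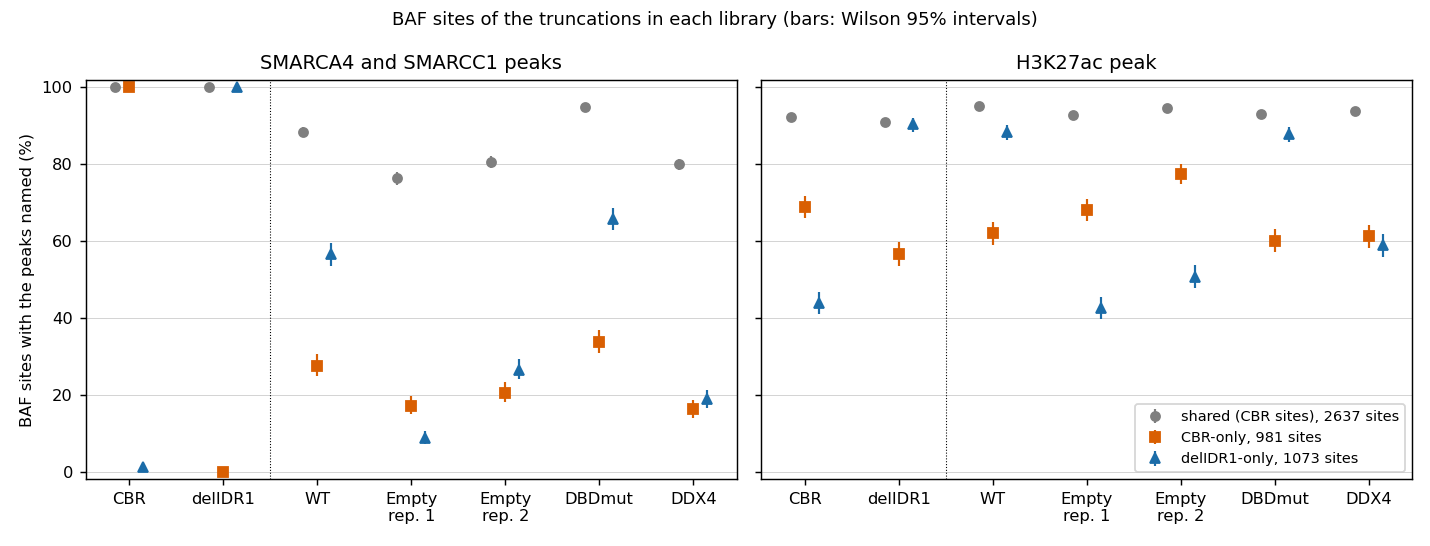
Percent of BAF sites (y axis) with both SMARCA4 and SMARCC1 peaks (left) or an H3K27ac peak (right) in each library (x axis), for 2637 shared, 981 CBR-only and 1073 delIDR1-only sites, with Wilson 95% bars. Values of the truncations in the left panel are set by how the classes were made; on the right, delIDR1-only sites are at 90.4% in delIDR1, 88.4% in WT and 87.9% in DBDmut but 43.9% in CBR and 42.6% in Empty replicate 1.

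The 10 delIDR1-only BAF sites of smallest summed rank in the SMARCA4 and SMARCC1 lists were looked up by position. Coordinates are those of the SMARCA4 peak in hg19, and genes are not named because no annotation of that build was used here. All 10 had both subunits and H3K27ac in delIDR1, in WT and in DBDmut, with the subunits in delIDR1 set by definition. Of all delIDR1-only sites 56.6% had both subunits in WT and 65.8% in DBDmut, so these 10 do not stand for the class. In CBR, 3 had a SMARCA4 peak below the cut, 0 had SMARCC1 and 3 had H3K27ac. In Empty replicate 1 there were 2 with SMARCA4, 4 with SMARCC1 and 2 with H3K27ac, and in replicate 2 there were 3, 3 and 4. Their SMARCA4 fold enrichment, the authors' value within the list, was 12.6 to 17.3, at pileups of 20 to 36 fragments.

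These sites differed in the libraries beyond WT. The first, chr6:23651034-23651321, ranked 168 for SMARCA4 and 142 for SMARCC1. It had both subunits and H3K27ac in WT, DBDmut, DDX4 and both Empty replicates. In CBR it had H3K27ac and a SMARCA4 peak below the cut, but no SMARCC1 peak. That both subunits were missing from the cut CBR lists was set by how the class was made. The site chr6:2003840-2004384 also had all 3 peaks in WT, DBDmut, DDX4 and both Empty replicates, but in CBR only a SMARCA4 peak below the cut. By contrast chr5:39518670-39518954, chr10:95506759-95506997 and chr5:77290780-77291105 had all 3 peaks in delIDR1, WT and DBDmut and none of the 3 in CBR, DDX4 or either Empty replicate. Their H3K27ac peaks in delIDR1 had folds of 12.04, 11.3 and 9.06.

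A further pair of sites, on chromosomes 5 and 10, connects to the acetylation lists. The site chr5:61902715-61903001, with no BAF subunit in CBR, DDX4 or Empty, lies within the delIDR1-only H3K27ac peak chr5:61902522-61903233, which ranked 299 of 30991 with a fold of 16.4 and a pileup of 104. That acetylation was also in WT, DBDmut and DDX4, and not in CBR or Empty. The site chr10:31958399-31958864 had all 3 peaks in WT, DBDmut, DDX4 and Empty replicate 2, only SMARCC1 in Empty replicate 1, and in CBR only a SMARCA4 peak below the cut.

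The 10 CBR-only sites of smallest summed rank were of another kind. Only 2 had H3K27ac in CBR, and 2 had it in WT. Of all CBR-only sites 69.0% had it in CBR and 62.1% in WT, so these 10 do not stand for the class. The first 3 in rank, chr19:59118869-59118981, chr2:243152481-243152585 and chr21:48119784-48119888, lay within 100 kb of the outermost peak of their chromosome, with SMARCA4 folds of 35.1, 24.8 and 20.2. Each of these had SMARCA4 but neither SMARCC1 nor H3K27ac in WT. In WT 9 of the 10 had SMARCA4 and 4 had SMARCC1, and in the Empty replicates 3 and 1 had SMARCA4 and 5 and 4 had SMARCC1. The acetylated pair were chr12:6717516-6717744 and chr10:74060942-74061226, both also acetylated in delIDR1 and WT.

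Shared sites led both lists. The 5 of smallest summed rank in delIDR1 had SMARCA4 pileups of 339 to 810, and both subunits in all 7 libraries. They included chr1:121484062-121485424 and chr13:110076479-110076685, and 2 lay within 100 kb of a chromosome's outermost peak. Acetylation was in every library at 4 of the 5, and chr13:110076479-110076685 had none in delIDR1, DBDmut or DDX4. No list of repeat or artefact regions was used here to filter peaks. Whether signal at these sites, or at the CBR-only sites near chromosome ends, is BAF binding or a mapping artefact was not tested.

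The strongest unshared H3K27ac peaks repeated the contrast in WT and Empty. The delIDR1-only peak of highest −log10 p, chr10:97211289-97212172, was 884 bp wide, ranked 40 and had a pileup of 248. It had SMARCA4, SMARCC1 and H3K27ac in delIDR1, WT and DBDmut, acetylation without BAF in DDX4, and none of the 3 in Empty, while CBR had SMARCC1 there without the other 2. The first 5 delIDR1-only peaks were all acetylated in WT and DBDmut and in neither Empty replicate. The first 5 CBR-only peaks were all acetylated in both Empty replicates and DDX4, and 3 of them in WT. The highest of those, chr22:44341702-44342141, ranked 322 with a pileup of 80 and was not acetylated in WT or DBDmut.

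CBR-only acetylation came in runs of neighbouring peaks less often than the other classes. Of delIDR1-only H3K27ac peaks, 3335 (22.1%) lay in 830 regions of at least 3 such peaks less than 12500 bp apart, and of CBR-only peaks 1885 (12.9%) lay in 549 regions. Shared peaks lay in such regions at 23.7% in CBR and 21.8% in delIDR1, so the delIDR1-only share was like theirs. The longest runs of delIDR1-only peaks had 17 each, at chr3:143752174-143846859 and chr9:13555500-13659297. WT had 7 and 8 of these peaks, Empty replicate 1 had 11 and 10, and Empty replicate 2 had 11 and 6, so Empty replicate 1 held more of them than WT did. The longest CBR-only run had 9 peaks at chr5:69499655-69529545, of which Empty replicate 2 had 9, Empty replicate 1 had 1 and WT had 2.

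The longest runs of BAF sites differed in acetylation in the direction of the classes. The CBR-only run was unlike its class, in which 69.0% of sites had H3K27ac in CBR and 62.1% in WT. The CBR-only run at chr19:50595905-50637265 had 7 sites in 41.4 kb. H3K27ac was at 0 of the 7 in CBR, delIDR1, WT, DBDmut, DDX4 and Empty replicate 1, and at 5 in Empty replicate 2, the longest list. The delIDR1-only run at chr2:224028688-224045376 had 4 sites in 16.7 kb, with H3K27ac at all 4 in delIDR1, at 3 in WT and at 1 in CBR.

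The unshared sites were spread unevenly over chromosomes. Chromosome 19 held 87 CBR-only and 24 delIDR1-only BAF sites, and 757 and 310 H3K27ac peaks. The BAF sites were 8.87% and 2.24% of their classes, beside 8.18% of all CBR and 5.77% of all delIDR1 sites. The H3K27ac peaks were 5.17% and 2.05%, beside 5.67% and 4.16% of all cut peaks. The CBR-only shares were thus near those of the whole lists, and the delIDR1-only shares were lower. Chromosome 4 had the opposite order, with 29 and 81 BAF sites and 532 and 909 H3K27ac peaks. The BAF sites were 2.96% and 7.55% of their classes, beside 4.07% of all CBR and 5.92% of all delIDR1 sites. The H3K27ac peaks were 3.63% and 6.03%, beside 3.87% and 5.01% of all cut peaks. These chromosomes were chosen after their values were seen. Shared H3K27ac peaks on chromosome 19 numbered 1000 in CBR and 979 in delIDR1. These are the same overlaps counted from each side, so near-equal counts were fixed by the definition. Whole H3K27ac lists had 5.07% of their peaks on chromosome 19 in CBR, 4.16% in delIDR1, 3.86% in WT, 4.95% and 4.44% in the Empty replicates, 3.795% in DBDmut and 4.76% in DDX4. Base composition of the peaks was not analysed here.

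Among all 7 libraries, delIDR1 overlapped most with DBDmut for each antibody. With H3K27ac lists of 30991 peaks, 72.7% of delIDR1 peaks overlapped DBDmut, 68.9% WT, 60.3% DDX4, 55.4% and 52.6% Empty replicates 2 and 1, and 51.3% CBR. The CBR order was another, with 68.8% in Empty replicate 2, 65.5% in DDX4, 54.6% in WT, 54.1% in DBDmut, 53.5% in Empty replicate 1 and 52.7% in delIDR1. For H3K27ac each truncation was thus the list that overlapped the other least.

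For SMARCA4, with 5453 peaks per list, delIDR1 overlapped DBDmut by 60.3%, DDX4 by 52.4%, WT by 51.8%, CBR by 51.5%, and Empty replicates 2 and 1 by 50.6% and 47.8%. CBR overlapped DDX4 by 57.3%, DBDmut by 56.7%, Empty replicates 1 and 2 by 55.3% and 53.3%, delIDR1 by 51.7% and WT by 47.4%. For SMARCC1, with 9489 peaks, delIDR1 overlapped DBDmut by 63.0%, Empty replicate 2 by 59.6%, WT by 58.6%, Empty replicate 1 by 58.1%, DDX4 by 55.3% and CBR by 50.02%. CBR overlapped Empty replicates 2 and 1 by 56.6% and 55.3%, DBDmut by 55.2%, DDX4 by 54.3%, WT by 53.5% and delIDR1 by 50.4%. The stamp that begins the peak names was 20210822 for CBR, delIDR1, WT, DBDmut and Empty replicate 1, 20220118 for DDX4 and 20220422 for Empty replicate 2, and the labels do not say what it records. For H3K27ac, 68.8% of CBR peaks overlapped Empty replicate 2, of another stamp, and 53.5% overlapped Empty replicate 1, of the same stamp. Counted the other way, 62.6% of replicate 2 and 58.8% of replicate 1 peaks overlapped CBR. The part of the stamp or of depth in these overlaps was not tested.

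**Figure D5:**
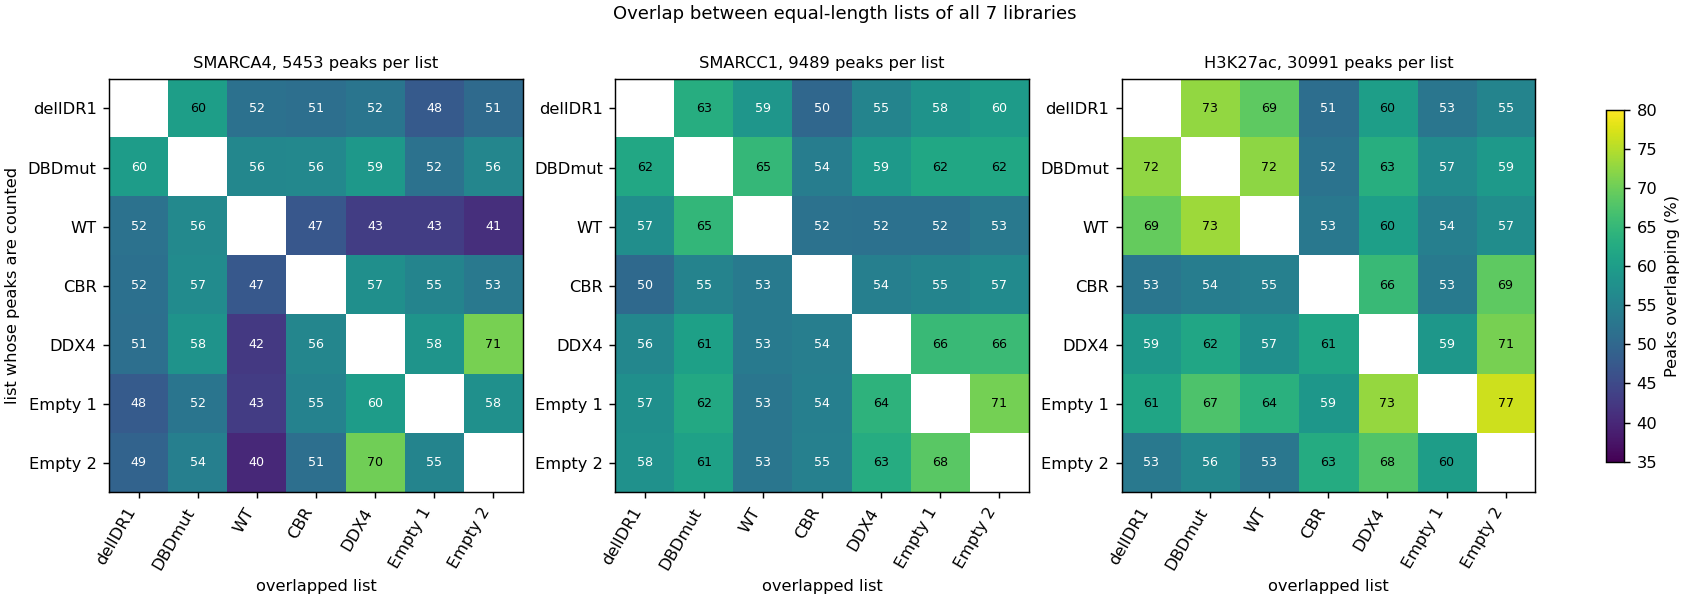
Percent of the peaks of 1 list (rows) that overlap another (columns), with all 7 lists of an antibody cut to the shortest. The delIDR1 row is highest at DBDmut for each antibody (60.3, 63.0 and 72.7%), and the H3K27ac row of CBR is highest at Empty replicate 2 (68.8%).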

How the data were processed

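CUT&Tag libraries were made by a commercial protocol, per the labels' protocols. The build was hg19 and bcl2fastq was used, per the submitters' processing notes. The aligner, duplicate handling, peak caller and control were not named in the sources used here. The authors deposited 1 list of 10 columns per library, with a fold enrichment (ratio) and the −log10 of a p-value and of a q-value for each peak. The deposited score is the −log10 q on a coarser scale. The lowest −log10 q was 2.0005 to 2.025, and these values serve only to rank, cut or describe peaks within a list.

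Members, lists and rules were chosen with earlier results of these data known. Rows with 1 position were merged, and pileup and background were solved from fold and p-value as a Poisson tail, which matched within 0.001 for at least 99.9% of peaks per library. Fragments per kb are the 0.001 quantile of the recovered background divided by the shortest peak, an estimate of depth. Classes used cut lists, and look-ups used whole lists unless stated. Shares have Wilson and differences Newcombe 95% intervals, with no p-values, since each truncation has 1 library per antibody; neighbouring peaks and PCR copies are not independent. Named sites are the 10 BAF sites of each unshared class and 5 shared ones of smallest summed rank, the 5 highest unshared H3K27ac peaks, and the longest runs. The HA library was not used. Alternatives were whole lists, shorter lists, ranking by fold, −log10 q of at least 5, other overlap rules and leaving out an Empty replicate. Code was tested on simulated data. Python 3.11.15, numpy 2.4.6, pandas 2.3.3, scipy 1.17.1 and matplotlib 3.10.9 were used.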

Additional observations from a re-analysis of the deposited data

How the results depend on the processing

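Of 112 values under other settings, 54 stayed within counting error, 51 moved and 7 changed sign. Every WT look-up difference kept its sign, with SMARCA4 at 5.88 to 21.9 points, SMARCC1 at 8.47 to 18.4 and H3K27ac at 27.3 to 42.6. The settings of peaks less than 1 kb apart and without chromosome ends, and all settings for sites in WT and not in Empty, were chosen after seeing the data. The cause of a change was not tested.

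Shared SMARCA4 peaks were 55.6% of the uncut delIDR1 list, 51.5% with all lists at the shortest length, 52.0% at a −log10 q of at least 5, 47.0% with 50% overlap and 51.4% with gaps under 1 kb. SMARCC1 gave 51.1% uncut, 51.6% at that q, 46.3% with 50% overlap and 52.8% with gaps. H3K27ac gave 54.1% uncut, 48.3% ranked by fold, 55.6% at that q, 49.1% with 50% overlap, 45.8% with summits within 250 bp and 57.7% with gaps.

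For WT the difference of delIDR1-only and CBR-only SMARCA4 peaks was 21.9 points uncut and 11.9 at that q. For SMARCC1 it was 16.1 uncut, 8.47 at the shortest length, 18.4 at that q, 10.5 with 50% overlap and 15.7 with gaps. For H3K27ac it was 42.0 uncut, 31.3 at the shortest length, 42.6 by fold, 36.9 at that q, 31.9 with 50% overlap, 27.3 by summits and 41.3 with gaps.

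For Empty the SMARCA4 difference was −0.454 points uncut and −11.4 at that q, and −8.03 to −13.7 with 1 Empty replicate left out. SMARCC1 changed sign, to 1.76 uncut, 0.551 at the shortest length, 1.35 by fold and 6.18 at that q, and to 3.33 without Empty replicate 1 and 1.76 without replicate 2. H3K27ac was −29.1 uncut, −20.2 at the shortest length, −25.8 by fold, −38.4 at that q, −33.5 by summits and −35.0 with gaps. It was −42.9 without Empty replicate 1 and 0.0373, a change of sign, without replicate 2, which decides that result.

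H3K27ac peaks in WT and not in Empty were 41.0 to 47.1% of delIDR1-only and 2.72 to 14.0% of CBR-only peaks with 1 Empty replicate left out, and 32.7% of delIDR1-only peaks at the shortest length and 37.9% uncut. BAF sites with all 3 peaks in WT and none in Empty were 32.2 to 35.9% of delIDR1-only and 1.22 to 1.83% of CBR-only sites with 1 replicate left out, and 25.5% of delIDR1-only sites at the shortest length and 34.2% uncut. The difference in own acetylation of BAF sites was 28.1 points uncut and 13.8 by summits.

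No paired analysis was possible because only Empty has replicate numbers. Depth limits weak peaks: delIDR1 had the fewest SMARCC1 and H3K27ac fragments per kb of all libraries, so a missing delIDR1 peak was not detected at that depth and is not shown absent.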

Other observations

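Peaks within 100 kb of the outermost peak of a chromosome were a small share of each list and a larger share of its top. They were 0.956% of all cut CBR SMARCA4 peaks and 0.856% of those of delIDR1. Of the 100 highest-ranked CBR-only SMARCA4 peaks 8 lay there, and of the 100 highest delIDR1-only peaks 0 did. For SMARCC1 the numbers were 5 and 0, and for H3K27ac 1 and 0. Among the 100 highest of all cut CBR and delIDR1 peaks, 17 and 13 lay there for SMARCA4. For SMARCC1 these numbers were 19 and 13, and for H3K27ac 10 and 7. Over whole classes these places held 29 CBR-only SMARCC1 peaks (0.552%) and 9 delIDR1-only ones (0.170%), and 53 (0.362%) and 16 (0.106%) for H3K27ac. Over all cut CBR and delIDR1 peaks the shares were 0.720% and 0.535% for SMARCC1 and 0.361% and 0.245% for H3K27ac. The CBR-only H3K27ac share was thus like that of its whole list, and the others were below theirs.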
